A study of Mus musculus with 4 samples.

Results

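The genes described here are 10 receptors and adaptors through which myeloid cells read antibody and neighbouring cells: the Fc receptors Fcgr1, Fcgr2b, Fcgr3 and Fcgr4, the adaptors Fcer1g and Tyrobp, and the paired receptors Trem2, Lilrb4a, Pirb and Sirpa. They were taken by name, each on the probe set with a single gene symbol and the highest mean over the 4 arrays. All 10 have such a probe set, 1 each, among 22180 genes named in this way. All 10 were also among the 17841 genes tested, which required at least 2 of the 4 arrays above a detection floor of 4.71, set from odorant and pheromone receptor genes that should be silent. Total RNA came from primary osteoblast cultures grown from the calvaria of newborn mice and kept for 21 days in osteogenic medium. Of the arrays (Affymetrix Mouse Gene 2.0 ST), 2 were labelled Runx3f/f/Col1a1-cre and 2 wild type, numbered 1 and 2 in each group. Col1a1-cre acts in cells that express type I collagen. It is meant to delete Runx3, a Runt-family transcription factor, in those cells rather than in every cell of a culture. The labels state neither how many animals each culture came from, nor their sex, nor the deleted exons, and a tissue tag on every array reads myoblast although the titles name osteoblasts. The design text speaks of progenitors, whereas the growth protocol describes differentiated cultures.

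Fc gamma receptors bind the constant part of immunoglobulin G. The activating ones carry no signalling tail of their own and depend on Fcer1g, whose ITAM tyrosines are phosphorylated and then recruit the kinase Syk, and Tyrobp (DAP12) does the same for Trem2. Inhibitory partners such as Fcgr2b, Lilrb4a, Pirb and Sirpa carry ITIM tyrosines that recruit the phosphatases encoded by Inpp5d and Ptpn6. In bone these receptors are known from macrophages and from osteoclast precursors, in which the adaptors give the costimulatory signal for osteoclast formation.

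Levels are on the deposited scale, taken as log2. Array medians over tested genes ran from 7.53 to 7.81, with replicate 2 the brighter. The Runx3 probe set was not lower in the mutant-labelled arrays, at 7.94 and 8.06 against 7.45 and 7.87, so these are called mutant-labelled here. Xist, the RNA that coats the inactive X, read 2.55-fold lower and the Y-linked Eif2s3y 4.85-fold higher in the mutant-labelled arrays, and the sex of the cultures, which the labels do not give, cannot be told apart from genotype. The mutant-labelled and wild-type values were identical for 35.8% of tested genes in replicate 1 and 50.2% in replicate 2. How these arose is not known here, and an exact 0 difference was therefore not read as an unchanged gene. Of the 10 receptors and adaptors, 1 (Fcgr4) had equal values in a replicate.

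Promoter windows were compared because several of these genes read lower together and Runt factors and PU.1, the myeloid Ets factor, each bind a known short DNA word. RefSeq windows (GRCm38.p6) from 250 bases before to 50 after the gene's start were found for 7 of the 10 genes: Fcer1g, Fcgr1, Fcgr2b, Fcgr3, Fcgr4, Pirb and Trem2. The Runt words TGTGGT and TGCGGT and the PU.1 core GAGGAA were searched on both strands, and no matches overlapped each other. The 4 windows shown are those of Fcer1g, Trem2 and Fcgr3, which read at least 1.5-fold lower in both replicates, and of Fcgr4, whose replicate 1 values were equal and below the detection floor; capitals mark the matches, some of them as the complementary strand reads.
Fcer1g (chr1:171234300-171234599, minus strand): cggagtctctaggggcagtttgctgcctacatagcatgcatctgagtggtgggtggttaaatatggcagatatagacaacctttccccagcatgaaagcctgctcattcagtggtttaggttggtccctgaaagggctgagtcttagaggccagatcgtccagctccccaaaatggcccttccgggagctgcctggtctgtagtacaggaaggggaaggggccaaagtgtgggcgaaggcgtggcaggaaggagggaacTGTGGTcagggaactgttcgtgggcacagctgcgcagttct
Trem2 (chr17:48346151-48346450, plus strand): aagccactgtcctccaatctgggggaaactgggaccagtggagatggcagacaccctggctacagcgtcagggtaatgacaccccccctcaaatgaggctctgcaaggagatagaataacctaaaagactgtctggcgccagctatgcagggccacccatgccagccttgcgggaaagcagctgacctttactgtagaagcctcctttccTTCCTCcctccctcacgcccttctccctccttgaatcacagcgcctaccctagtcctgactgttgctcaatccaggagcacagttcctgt
Fcgr3 (chr1:171059354-171059653, minus strand): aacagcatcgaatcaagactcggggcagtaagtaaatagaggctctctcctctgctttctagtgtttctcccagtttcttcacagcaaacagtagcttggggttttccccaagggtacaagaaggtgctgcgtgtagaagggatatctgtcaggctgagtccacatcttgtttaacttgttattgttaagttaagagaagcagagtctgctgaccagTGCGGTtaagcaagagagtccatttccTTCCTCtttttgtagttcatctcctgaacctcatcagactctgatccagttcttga
Fcgr4 (chr1:171018676-171018975, plus strand): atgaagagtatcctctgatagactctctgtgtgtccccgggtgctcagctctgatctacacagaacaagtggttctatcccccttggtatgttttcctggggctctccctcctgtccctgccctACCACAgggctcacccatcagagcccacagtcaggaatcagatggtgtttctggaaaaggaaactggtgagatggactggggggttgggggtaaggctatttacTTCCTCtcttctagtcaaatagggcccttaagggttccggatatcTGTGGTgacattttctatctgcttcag
TGTGGT was found in 2 of the 7 windows, Fcer1g and Fcgr4, and in 16.8% of 32851 windows of the same length. TGCGGT was found in 1, Fcgr3, and in 6.45% of all windows. The GAGGAA core was found in 5 of the 7, namely Fcgr1, Fcgr3, Fcgr4, Pirb and Trem2, and in 28.3% of all. Fcgr3 and Fcgr4 each held a Runt word and the PU.1 core. The window of Fcgr2b, also at least 1.5-fold lower in both replicates, held none of these words and is not shown. A match describes letters in the window only.

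The comparison of the mutant-labelled with the wild-type cultures asks which genes differ when Runx3 is targeted in cells that express type I collagen. Because the Runx3 probe set was not lower, the deletion itself was not shown here. Of the 10 genes, 9 read lower in the mutant-labelled array within both replicates, against 19.5% of tested genes and 49.1% of the 7076 whose values were unequal in both. In the opposite direction, 0 read higher in both, against 16.8% of tested genes, and 0 were at least 1.5-fold higher in both, against 1.47%. At least 1.5-fold lower in both replicates were 6 of 10, against 1.15% of tested genes, or 2.91% of those 7076: Lilrb4a, Fcer1g, Tyrobp, Trem2, Fcgr2b and Fcgr3. At least 2-fold lower in both were 4, against 0.572%. Both mutant-labelled arrays lay below both wild-type arrays for 8 genes, against 9.25%; Fcgr4 and Pirb were the exceptions. In limma without a replicate term, 0 of 10 passed the adjusted threshold of 0.05, as did 0 of 17841 genes (0%). The 6 genes also had an unadjusted limma p under 0.05 together with a mean level at least 1.5-fold lower, against 1.26% of tested genes. The median difference of the 10 genes was -1.17, with -1.37 within replicate 1 and -0.83 within replicate 2. Over all tested genes the median was 0 in each. Identical values in 50.2% of tested genes fix it at 0 in replicate 2, and 35.8% were identical in replicate 1. That 0 is therefore not a measured absence of change.

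**Figure D1:**
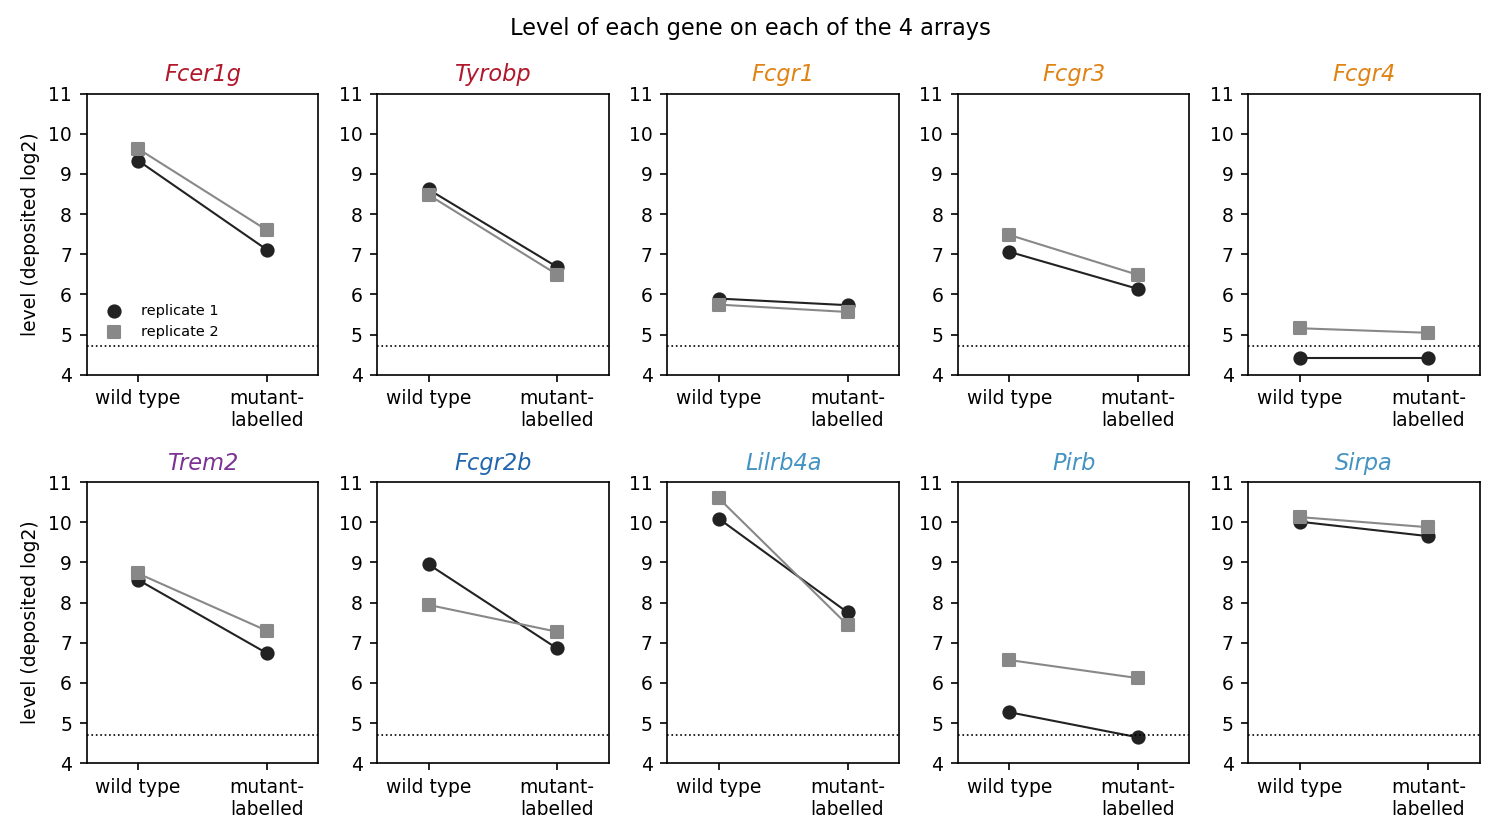
Level of each gene (y axis, deposited log2 values) in the wild-type and mutant-labelled arrays, with circles for replicate 1, squares for replicate 2, lines joining arrays of the same number and a dotted line at the detection floor of 4.71. Lilrb4a, Fcer1g, Tyrobp and Trem2 slope down steeply in both replicates, while Fcgr1, Fcgr4 and Sirpa are nearly flat.

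The adaptors differed by nearly the same amount in both replicates. Fcer1g, the common gamma chain of activating Fc receptors, read 7.11 and 7.60 on the mutant-labelled arrays against 9.33 and 9.62 in wild type. The groups did not overlap, and each mutant-labelled array lay about 2 log2 units below its partner, at -2.22 within replicate 1 and -2.02 within replicate 2. The difference was -2.12 (SE 0.24, limma adjusted p = 0.375), 4.35-fold lower. Tyrobp read 6.68 and 6.49 against 8.61 and 8.48. Here the replicates of a group lay within 0.19 of each other while the groups stood -1.93 and -1.98 apart, a difference of -1.96 (SE 0.14, limma adjusted p = 0.312) and 3.88-fold lower. That adjusted p, the smallest reached by any of the tested genes, was shared by several genes. Among them, Vsig4 and Mrc1 had smaller unadjusted p-values in limma than Tyrobp.

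Trem2, a lipid and lipoprotein receptor that signals through Tyrobp, read 6.74 and 7.30 in the mutant-labelled arrays against 8.56 and 8.72 in wild type. The groups did not overlap, and the difference was -1.62 (SE 0.25, limma adjusted p = 0.504), 3.08-fold lower, with -1.82 and -1.42 within the replicates.

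Of the 3 activating Fc receptors, 1 was at least 1.5-fold lower in both replicates. Fcgr3, the low-affinity receptor present on most myeloid cells, read 6.14 and 6.48 against 7.06 and 7.48, with no overlap and 1.94-fold lower (-0.96, SE 0.23, limma adjusted p = 0.877). It was 1.90-fold lower within replicate 1 and 1.99-fold lower within replicate 2. The unadjusted limma p, 0.0190 with all arrays, was 0.0761 without mutant-labelled replicate 1 and 0.077 without wild-type replicate 2. Fcgr1, the high-affinity receptor, read 5.73 and 5.56 against 5.89 and 5.74. The groups lay next to each other without overlapping, and the difference of -0.17 had a limma 95% interval from -0.59 to 0.24 (unadjusted p = 0.297). With the replicate block, a fit with 1 residual degree of freedom, the interval ran from -0.23 to -0.12 (unadjusted p = 0.0101, adjusted p = 0.220, limma). With the intensity trend it ran from -0.98 to 0.63. Fcgr4 read 4.41 and 5.04 against 4.41 and 5.16. Both replicate 1 values fell below the detection floor and were exactly equal, so the probe set carried a signal above the floor in replicate 2 only. Its interval, -1.17 to 1.06, allows a difference of either sign.

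Among the inhibitory receptors, Lilrb4a had the largest difference. This receptor, formerly gp49B, read 7.75 and 7.44 on the mutant-labelled arrays against 10.09 and 10.59 in wild type, 5.03-fold lower within replicate 1 and 8.88-fold lower within replicate 2. Its difference of -2.74 (SE 0.25, limma adjusted p = 0.312) was the lowest but 8 of all tested genes. A further probe set lists Lilrb4a together with another gene and was not used.

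Fcgr2b, the inhibitory Fc receptor, read 6.86 and 7.27 against 8.95 and 7.94. All 4 values kept the groups apart, but the wild-type arrays lay 1.01 apart and the within-replicate differences were -2.09 and -0.67. Its mean difference of -1.38 (SE 0.42, limma unadjusted p = 0.0370, adjusted p = 1) had an unadjusted p of 0.203 with the replicate block, so the 1.5-fold call at p under 0.05 did not hold there. Without wild-type replicate 1 the difference was -0.88 (unadjusted p = 0.0534), and without mutant-labelled replicate 1 it was -1.17 (unadjusted p = 0.073), both from limma.

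Pirb and Sirpa had smaller differences. Pirb, which binds MHC class I, read 4.64 and 6.12 against 5.27 and 6.57. Its values were ordered by replicate number rather than by group, with replicate 2 higher by 1.39 on average, and the differences within replicates were -0.63 and -0.45. The interval of its mean difference, -2.71 to 1.63 (unadjusted p = 0.515), holds that offset between replicates; with the replicate block it ran from -1.04 to -0.03 (limma unadjusted p = 0.0458, adjusted p = 0.372). Sirpa, the receptor for CD47 that restrains phagocytosis, read 9.65 and 9.87 against 10.01 and 10.13, 1.24-fold lower (-0.31, 95% interval -0.74 to 0.13, limma adjusted p = 1). The groups did not overlap, by 0.14 log2 units between the nearest arrays.

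**Figure D2:**
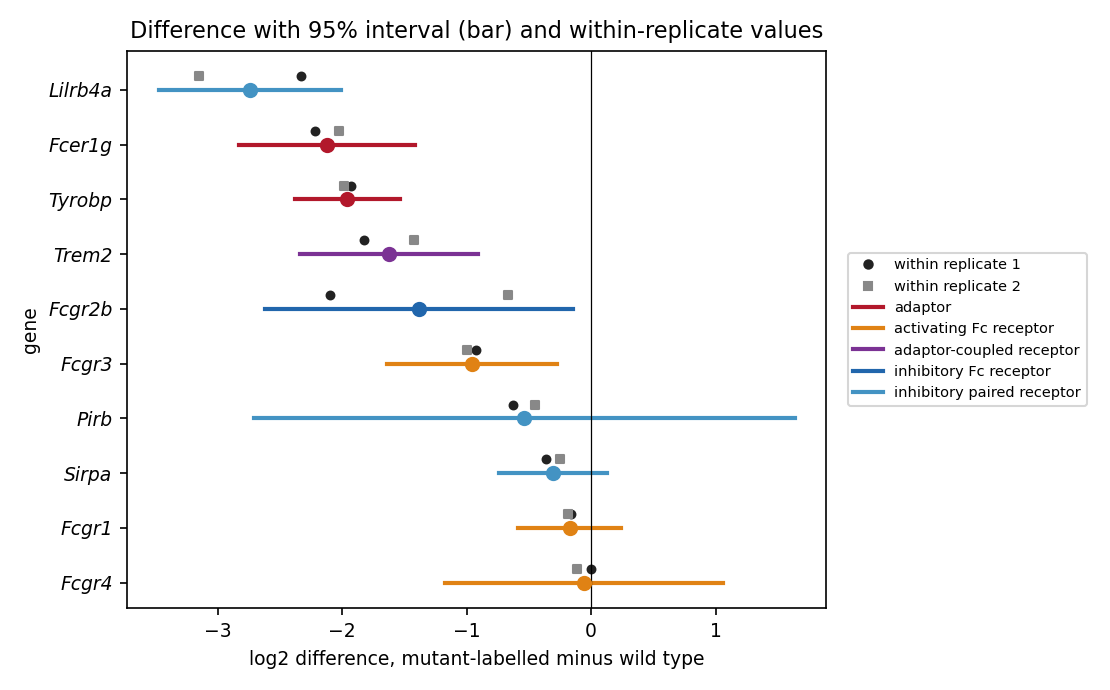
Difference of each gene, mutant-labelled minus wild type in log2 units (x axis), with the limma 95% interval as a bar in the colour of its role and the within-replicate differences above it. The bars of Lilrb4a, Fcer1g, Tyrobp, Trem2, Fcgr2b and Fcgr3 lie below 0; those of Pirb, Sirpa, Fcgr1 and Fcgr4 cross it.

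With the replicate number as a block, a term added because arrays of a number shared values, 7 of 10 genes had unadjusted p under 0.05 and lower levels, against 6.74% of tested genes, and 0 passed the adjusted threshold (limma). The 7 were Fcer1g, Tyrobp, Fcgr1, Fcgr3, Trem2, Lilrb4a and Pirb. The block fit leaves 1 residual degree of freedom, and its variances draw on 4583 genes with equal values in both replicates. In either direction 13% of tested genes had an unadjusted p under 0.05 there. All p-values and intervals with the block are therefore uncertain. With an intensity trend in limma's variance in place of the block, 2 of 10 (Lilrb4a and Tyrobp) passed the adjusted threshold, against 0.275% of tested genes. When the arrays were quantile normalized once more and the block was kept, a choice made after seeing the data, 3 (Fcer1g, Trem2 and Tyrobp) passed, against 2.3%.

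**Figure D3:**
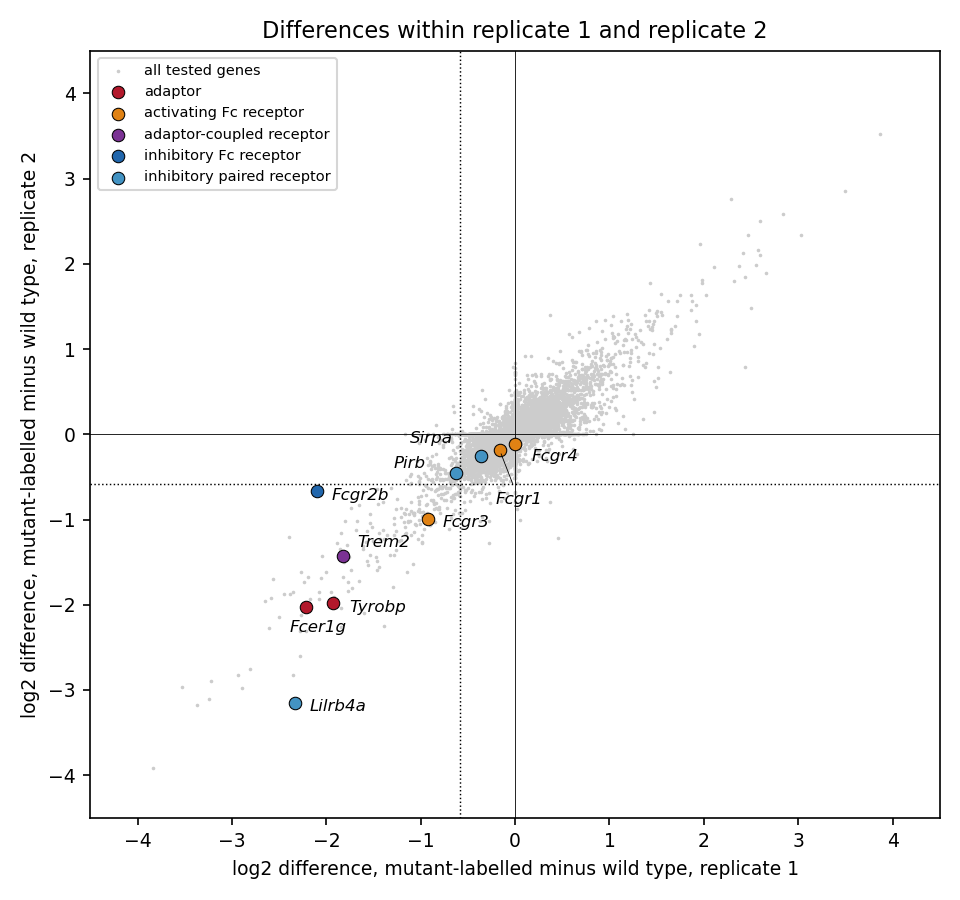
Difference within replicate 1 (x axis) against difference within replicate 2 (y axis) for all 17841 tested genes in grey and the 10 genes in colour by role, in log2 units, with dotted lines at 1.5-fold lower. Of the 10, 6 lie past both dotted lines, and Fcgr2b is the farthest of these from equal differences, at -2.09 and -0.67.

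Some of the genes that adjoin these receptors on the chromosome were read beside them. They were chosen with their values known, from the order of protein-coding genes in GRCm38.p6. The remaining neighbours are not given, so these values do not describe adjoining genes in general. Fcgr4 lies between Fcgr2b and Fcgr3, and its difference was -0.06 against -1.38 and -0.96, with -0.11 in replicate 2, the only one in which it lay above the floor. Hcst, which encodes the adaptor DAP10 and adjoins Tyrobp, differed by -0.01, with 6.05 and 6.42 on the mutant-labelled arrays against 6.07 and 6.42. Its replicate 2 values were exactly equal, so this was not read as an unchanged gene. Treml1, a platelet receptor gene next to Trem2, had equal values in both replicates.

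Other receptors of the same kinds were read from a list. Of 53 other paired and C-type lectin receptors 31 were tested; 8 were at least 1.5-fold lower in both replicates (1.15% of all tested genes were), 0 were as much higher, and the median difference was -0.08. Clec4n (Dectin-2), which signals through Fcer1g, read 5.04 and 5.29 against 7.26 and 7.60, a difference of -2.26. Its groups stood apart by more than any pair of replicates. The related Clec4d and Clec4e, of the same adaptor, differed by -1.94 and -1.31, and Clec5a, which uses Tyrobp, by -0.96. Clec12a, an inhibitory lectin, differed by -1.66 and Siglec1, the sialic acid receptor of macrophages, by -1.99. These 6 genes had the smallest p of the list, with limma unadjusted p from 0.000613 to 0.00376, and 0 of 31 passed the adjusted threshold. Of the 31, 17 were above the detection floor of 4.71 on all 4 arrays. Clec4e (4.56 and 4.51) and Clec5a (4.68 and 4.68) lay below it on both mutant-labelled arrays, and Clec12a (4.55) on mutant-labelled replicate 1. The sizes of their differences are therefore uncertain. Oscar, an Fcer1g-coupled receptor of osteoclasts, differed by 0.23.

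Of 14 other Fc receptor genes, 11 were tested and 0 reached an unadjusted p under 0.05 in limma, against 3.96% of tested genes, and 0 passed the adjusted threshold; 4 had equal values in both replicates. With the replicate block 1 of the 11, Fcgrt (limma unadjusted p = 0.000588), fell under 0.05, against 13% of tested genes. The list includes receptors of B cells and mast cells. Fcrls, an Fc receptor-like gene of macrophages and microglia, differed by -0.27 and Fcgrt, the neonatal receptor that recycles immunoglobulin G, by 0.19 at levels of 11.81 and 11.98 against 11.62 and 11.79, or 0.19 higher within each replicate.

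Downstream of the adaptors, 27 of 30 kinase and effector genes were tested, with a median of -0.12. Of these, 0 were at least 1.5-fold higher in both replicates, against 1.47% of tested genes. As much lower in both was 1, against 1.15%. This was Pik3ap1, which links receptors to phosphoinositide 3-kinase, at -0.86 (6.20 and 6.37 against 7.20 and 7.09). Pik3cg differed by -0.78, Vav1 by -0.69, Btk by -0.47, Vav3 by -0.43 and Sh3bp2 by -0.39. Syk itself, chosen here for its role, read 7.36 and 7.20 against 7.47 and 7.41, a difference of -0.16.

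In a list of phosphatases and effectors read for the inhibitory receptors, 13 of 14 genes were tested. Of these, 3 were at least 1.5-fold lower in both replicates, against 1.15% of tested genes, and the median was -0.18. Not every gene on the list is itself inhibitory. Inpp5d, the lipid phosphatase SHIP1 recruited by Fcgr2b, read 5.42 and 5.66 against 7.19 and 7.50. Its groups did not overlap, and it differed by -1.81 (SE 0.18, limma adjusted p = 0.324), 3.50-fold lower. Ptprc (CD45), which is also counted among the macrophage markers, differed by -1.02 and Fyb, an adaptor of haematopoietic cells, by -0.87. Dok1 and Csk differed by -0.48 and -0.44 and Ptprj by -0.42. Ptpn6, which encodes the phosphatase SHP-1 and was chosen here for its role, held equal values within each replicate, 6.71 in replicate 1 and 6.75 in replicate 2.

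Ligands of these and of related receptors were read as well. Of 12 tested, 1 was at least 1.5-fold lower in both replicates, against 1.15% of tested genes. This was the cartilage collagen Col2a1 at -0.95 (collagens bind the inhibitory receptor Lair1). The median was 0, and 4 of the 12 had equal values in both replicates. Cd47, the ligand of Sirpa, read 11.26 and 11.35 against 11.05 and 11.20, a difference of 0.18. Cd200, the ligand of the receptor Cd200r1, differed by -0.36, H2-K1, a class I molecule, by 0.27, Rtn4, which encodes the Pirb ligand Nogo, by -0.14 and Plxna1, which pairs with Trem2 in osteoclasts, by -0.13.

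**Figure D4:**
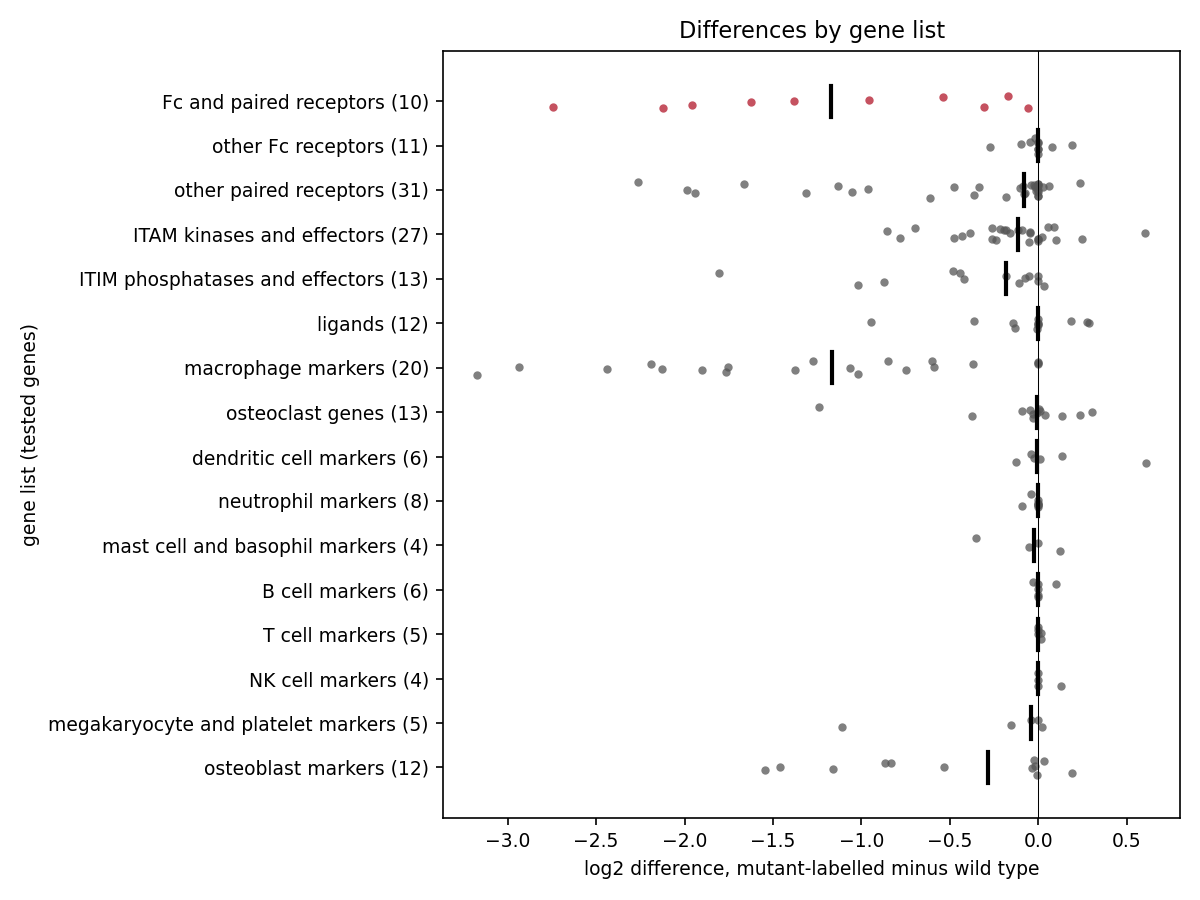
Difference of each tested gene, mutant-labelled minus wild type in log2 units (x axis), by gene list (y axis, number of tested genes in brackets), with the list median as a black bar. The Fc and paired receptors have a median of -1.17 and the macrophage markers -1.17. The medians of the B cell, T cell, NK cell and neutrophil lists are 0, and most genes in each of these lists had equal values in both replicates.

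Macrophage markers read lower on the same arrays. The 20 markers were all tested, and none of them is among the 10 genes. In both replicates 17 read lower, against 19.5% of tested genes, or 49.1% of those with unequal values in both. At least 1.5-fold lower in both were 15, against 1.15%, or 2.91%. The median difference was -1.17. Their summed linear level was 3528 and 3915 on the mutant-labelled arrays against 9626 and 10202 in wild type. The 6 of smallest p were Vsig4 (-3.17), Mrc1 (-2.93), Lyz2 (-1.77), Mpeg1 (-2.19), Adgre1 (-2.44) and C1qb (-1.90). The other 3 of the 20, Cx3cr1, Aif1 and Mertk, had equal values in both replicates. Of the 20, 18 were above the floor on all 4 arrays. The part of macrophage abundance in the receptor differences was not tested, and in RNA from a whole culture fewer macrophages and less RNA per macrophage cannot be told apart. Spi1, the gene of PU.1, differed by -0.37, with -0.69 and -0.05 within the replicates.

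Osteoclast genes, whose precursors also carry these receptors, had a median of -0.01 over 13 tested. Only 6 of the 13 had unequal values in both replicates, and the median within each replicate was 0. These medians were therefore not read as unchanged osteoclast genes. At least 1.5-fold lower in both replicates was 1 of 13, against 1.15% of tested genes. This was Atp6v0d2, a proton pump subunit needed for precursor fusion, at -1.24 (5.37 and 5.90 against 6.91 and 6.84). Acp5, the resorption enzyme TRAP, was at 0.30, Tnfrsf11a, the RANK receptor, at -0.37 and Tcirg1 at 0.13. Clcn7 was at -0.10, with equal values in replicate 2.

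Markers of other cells that carry Fc receptors were also read. Of 8 tested neutrophil markers 6 had equal values in both replicates, and the largest size among the differences was that of Csf3r at -0.09. Of 10 mast cell and basophil markers 4 were tested, with Mcpt8 at -0.35 and Kit at 0.12, and the defining genes Fcer1a and Ms4a2 were left untested because fewer than 2 arrays lay above the floor. B cell (6 tested), T cell (5) and NK cell (4) markers had medians of 0, with Cd79a at 0.10, Cd8a at 0.02 and Prf1 at 0.13. Equal values in both replicates were held by 4 of the B cell, 3 of the T cell and 3 of the NK cell markers. Of the T cell markers 0 were above the floor on all 4 arrays. These medians of 0 were therefore not read as unchanged cells.

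Osteoblast markers, the labelled cell type, were present on every array, with 12 of 12 above the floor on all 4. The median of the 12 was -0.29. At least 1.5-fold lower in both replicates were 5, against 1.15% of tested genes. They were Ibsp (-1.55), Dmp1 (-1.46), Mepe (-1.16), Ifitm5 (-0.87) and Phex (-0.83). Bglap was at -0.54. Named here beyond the 6 of smallest p, Sp7 read higher in both replicates, at 0.19. Alpl, Omd, Col1a2, Sparc and Col1a1 ran from -0.035 to 0.032, with equal values in replicate 2.

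The 5 tested genes whose centred levels over the 4 arrays came closest to the mean profile of the 10 genes were Trim13, Mepe, Aqp1, C4b and 9930111J21Rik2. Their root mean square distances ran from 0.03 to 0.07 log2 units. Their differences lay between -1.24 and -1.08, next to a mean of -1.19 for the 10 genes, and none of the 5 is on the macrophage list. With 4 arrays this likeness is a description only.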

How the data were processed

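The values are log2 expression per probe set as deposited by the authors. Per the submitters' processing notes Partek and RMA were used, with versions, role and order not given in the sources used here; base 2 is assumed from RMA. The probe sets were named through the platform annotation. Of 41345 rows, 23521 had 1 symbol, 1814 several and 16010 none, and only the first kind was used. The detection floor was the 90th percentile of mean level over 1405 rows for olfactory and vomeronasal receptors.

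The groups were compared with limma 3.58.1 in R 4.3.3, by a two-sided moderated linear model with no term but group, 2 residual degrees of freedom and Benjamini-Hochberg adjustment over all tested genes. The fits were tested on simulated data with known changes. Those data held no identical values between arrays, so that test does not cover the identical values found here. P-values measure the spread between these arrays, and 2 per group limit their precision. Differences within a replicate carry no test.

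The genes and lists were chosen with earlier results of these data known. Names beyond the 10 genes are those of smallest unadjusted p in each list, up to 6, except where stated; Runx3, Xist and Eif2s3y; and the 5 nearest profiles. Alternatives were the dim-gene filter, normalization, probe set treatment, the intensity trend, the replicate block and each array left out. Deviations from the group means correlated between arrays of a number (across genes, Pearson r = 0.92, and 0.83 over genes with unequal values); the labels give no shared litter or day.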

Additional observations from a re-analysis of the deposited data

How the results depend on the processing

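The count of 6 genes at least 1.5-fold lower within both replicates was 6 without the dim-gene filter, with the floor raised to the all-row median (8 of the 10 genes tested; Fcgr1 and Fcgr4 gave no value), after quantile normalization again, after median centring and with the mean of all rows of a gene, and 4 at 2-fold. The 6 genes with unadjusted p under 0.05 and 1.5-fold in limma became 5 with the replicate block, where Fcgr2b dropped out. Leaving out an array gave 4 to 6: Fcgr2b and Fcgr3 dropped out without mutant-labelled replicate 1, Fcgr2b without wild-type replicate 1 and Fcgr3 without wild-type replicate 2. The count past the adjusted threshold, 0, became 2 with an intensity trend in the variance (Lilrb4a and Tyrobp) and 3 when renewed quantile normalization was joined to the replicate block (Fcer1g, Trem2 and Tyrobp), a combination chosen after seeing the data; it was 0 in each other alternative. With no fold threshold, the 6 genes under an unadjusted limma p of 0.05 became 7 with the block, which brought in Fcgr1 and Pirb and dropped Fcgr2b; among the other Fc receptors it brought in Fcgrt. It changed no other of the 10 genes' calls at these thresholds. Leaving out an array turned the sign of Fcgr4 (-0.43 to 0.32) and Pirb (-1.27 to 0.20) and of none of the other 8 genes; the median of all tested genes then ran from -0.16 to 0.15. Fcgr4, and Pirb in replicate 1, lay too close to the floor for small differences to be read.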

Other observations

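Among the markers of cells that can carry these receptors, a few stood apart from their lists. Cd209a, a C-type lectin of dendritic cells and some macrophages, read 9.66 and 9.93 on the mutant-labelled arrays against 9.13 and 9.25 in wild type, a difference of 0.61 (SE 0.16, limma unadjusted p = 0.0229, adjusted p = 0.950), while the other 5 tested dendritic cell markers lay between -0.13 and 0.13. Pf4, a chemokine of platelets that macrophages can also make, read 5.02 and 4.70 against 6.20 and 5.74, a difference of -1.11. Its mutant-labelled replicate 2 value lay just below the detection floor. Ppbp, another platelet gene, was lower in both replicates, at -0.16. Gp9 and Itga2b were at -0.04 and 0.02, with equal values in replicate 2, and Treml1 had equal values in both replicates. Tec, a kinase related to Btk and named here after its values were seen, read 8.38 and 8.56 against 7.55 and 8.18, a difference of 0.60 that did not pass (SE 0.27, limma unadjusted p = 0.0984), with 0.83 and 0.37 within the replicates.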
